A study of Mus musculus with 24 samples.

Results

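The miRNAs described here are 9 mature products of 2 families, miR-34 with miR-449 and miR-204 with miR-211. They were taken by name from the 1531 mouse miRNAs listed in the count table of each brain region. MiRNA-Seq had been run on 24 libraries from 8 CD1 mouse pups of both sexes at postnatal day 9. Each pup gave right cerebellum, right striatum/thalamus, and right cortex. In 4 pups (1, 4, 5, and 7) hypoxic-ischemic brain injury (HIBI) was made by right carotid ligation and, after 2 h with the dam, 30 min in 8% oxygen. The other 4 pups (2, 3, 6, and 8) had sham surgery, with the same anesthesia and neck dissection but neither ligation nor hypoxia. Tissue was frozen from pups killed 30 min after the exposure. The cerebellum lies outside the territory of the ligated artery, so in this model it is exposed to hypoxia without ischemia. No group had hypoxia alone or ligation alone. Whole regions were homogenized, and no library was made from choroid plexus, ependyma, or any other isolated cell type.

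A miRNA is a short RNA that guides the silencing machinery to mRNAs, which it recognizes mainly through its seed, bases 2 to 8. The miR-34b/c and miR-449 clusters are known for their high level in cells with motile cilia, such as ependyma and airway epithelium, where they act in the making of multiple cilia. MiR-34a has much the same seed, is found in many cell types, and is known as a target of p53. MiR-204 and miR-211 are known from the retinal pigment epithelium, the choroid plexus, and melanocytes, and are transcribed within genes of the Trpm channel family. The choroid plexus is the epithelium that secretes cerebrospinal fluid into the ventricles.

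The sequences are shown because they sort the members into seed groups that cut across the loci. A mature sequence from RefSeq (build GRCm38.p6) was matched for 8 of the 9 members, all but miR-34c-5p. Each is written 5′ to 3′ with the seed in capitals.
mmu-miR-34a-5p: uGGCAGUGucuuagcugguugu
mmu-miR-34b-5p: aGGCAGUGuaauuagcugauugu
mmu-miR-449a-5p: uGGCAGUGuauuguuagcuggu
mmu-miR-34b-3p: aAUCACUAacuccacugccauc
mmu-miR-34c-3p: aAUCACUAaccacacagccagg
mmu-miR-204-5p: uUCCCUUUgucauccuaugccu
mmu-miR-211-5p: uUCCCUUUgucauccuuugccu
mmu-miR-204-3p: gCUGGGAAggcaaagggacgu

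The 5p arms of miR-34a, miR-34b, and miR-449a shared the seed GGCAGUG. The 3p arms of miR-34b and miR-34c shared a different one, AUCACUA, and were identical at 17 of 22 positions. MiR-204-5p and miR-211-5p were identical at 21 of 22 positions and differed by A17U, counted from the 5′ end with the miR-204-5p base first. With a single base between them, reads of this pair could have been assigned to either one by the authors' alignment, and the counts of miR-211-5p, the rarer of the pair, are uncertain for that reason.

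The members come from 6 hairpins (GRCm38, GENCODE M21). Mir34b (chr9:51103562-51103645) and Mir34c (chr9:51103034-51103110) are on the minus strand, 451 bases apart, and antisense to an intron of Btg4. Mir34a (chr4:150068454-150068555, plus strand) overlaps an exon of the gene Gm37795. Mir449a (chr13:113037534-113037624, plus strand) is in an intron of Cdc20b, within the cluster that also holds Mir449b and Mir449c. Mir204 (chr19:22750605-22750672, plus strand) is in an intron of Trpm3, and Mir211 (chr7:64205806-64205911, plus strand) is in an intron of Trpm1. The miR-34b/c pair is therefore the single case among the 9 in which members of different names come from neighboring hairpins.

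The libraries held from 1254185 to 3406624 counts on mouse miRNAs, so that 3 counts, the limit that a count of 0 allows, corresponded to 0.881 to 2.39 CPM. CPM is the depth-scaled unit of counts in edgeR, and intervals of this kind cover counting error only. Levels below were scaled by TMM normalization over the 24 libraries. The limit just given and the averages set against the 10 CPM minimum were scaled by library size alone. No library pair of a group differed by less than sampling noise. Sham pup 2 was apart from the other sham pups for several of the miRNAs below in the cerebellum, and its values are given at each place.

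The members spanned several orders of abundance. Over the 24 libraries mmu-miR-204-5p had 154748 counts, mmu-miR-34b-3p 11189, mmu-miR-34c-5p 4372, mmu-miR-34c-3p 1599, mmu-miR-34a-5p 1285, mmu-miR-204-3p 1175, mmu-miR-449a-5p 762, mmu-miR-211-5p 350, and mmu-miR-34b-5p 10. MiR-204-5p ranked 41st of the 1531 miRNAs by mean CPM in the cerebellum, 56th in the cortex, and 57th in the striatum/thalamus. MiR-34b-3p ranked 178th, 221st, and 148th. At both of these loci 1 arm held most of the counts, the 5p arm for miR-204 and the 3p arm for miR-34b. MiR-34c had both arms, with a median of 3.49 counts of the 5p arm for each count of the 3p arm in the cerebellum, 2.63 in the cortex, and 2.04 in the striatum/thalamus. An average above 10 CPM in the region was required for a test. This was passed by 7 members in the cerebellum, 6 in the cortex, and 8 in the striatum/thalamus. MiR-34b-5p passed nowhere, miR-211-5p passed in the striatum/thalamus alone, and miR-449a-5p missed the minimum in the cortex with an average of 9.29 CPM.

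All 7 members tested had a lower mean in the sham cortex than in the sham cerebellum, and 6 of them passed the test (fold change above 1.5 and adjusted p under 0.05 by edgeR's quasi-likelihood test), where 26% of the 435 miRNAs tested were called lower. The largest difference was that of miR-34b-3p, whose 4 sham values were 524, 246, 141, and 244 CPM in the cerebellum (pups 2, 3, 6, and 8) and 70.6, 93.2, 92.5, and 65.7 CPM in the cortex. The ranges did not overlap, and the level was 3.58-fold lower in the cortex (log2 fold change -1.84, standard error 0.36, edgeR adjusted p = 0.000177). The other members called were miR-204-3p (-1.71), miR-34c-5p (-1.63), miR-34a-5p (-1.37), miR-204-5p (-1.24), and miR-34c-3p (-1.23). MiR-449a-5p had a log2 fold change of -1.05 (edgeR adjusted p = 0.110). The calls of miR-204-5p (-0.71) and miR-34c-3p (-0.76) were lost without sham pup 2, and that of miR-34a-5p (-0.95) without sham pup 3.

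Between the sham striatum/thalamus and the sham cerebellum, 3 of 7 members were called lower, with 30.1% of all miRNAs tested called lower. These were miR-204-5p (log2 fold change -1.41, edgeR adjusted p = 0.000798), miR-34c-5p (-1.40, 0.00481), and miR-34a-5p (-1.39, 0.00973). MiR-34b-3p, transcribed beside miR-34c, had a log2 fold change of -0.23 with a standard error of 0.35, so that no difference larger than the spread between pups was found for it. Without sham pup 2 the call of miR-34c-5p was lost (-0.76). Between the sham striatum/thalamus and the sham cortex, 1 of 7 members was called, where 30.8% of the 435 were called in either direction. This was miR-34b-3p, which was 3.04-fold higher in the first of these (log2 fold change 1.61, standard error 0.36, edgeR adjusted p = 0.00152). For miR-34a-5p, miR-204-5p, miR-34c-5p, and miR-449a-5p the striatum/thalamus and cortex did not differ beyond their spread, with log2 fold changes from -0.16 to 0.23.

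The same differences between regions were fitted in the HIBI pups, and whether each differed from that in the sham pups was not tested. MiR-34b-3p was 1.43 higher on the log2 scale in the striatum/thalamus than in the cerebellum (standard error 0.36), against -0.23 in the sham pups. MiR-204-3p was 1.16 higher (0.47), against -0.85. For miR-204-5p the difference between the striatum/thalamus and the cerebellum was -0.24 in the HIBI pups and -1.41 in the sham pups. For miR-34a-5p it was -2.16 and -1.39, lower in the striatum/thalamus in both groups. Between the cortex and the cerebellum 2 members were called in the HIBI pups, in place of 6. The difference there was -0.52 for miR-34b-3p, -0.16 for miR-204-5p, and 0.042 for miR-204-3p, against -1.84, -1.24, and -1.71 in the sham pups. For miR-34c-5p it was -1.18 against -1.63, and for miR-34a-5p -1.98 against -1.37.

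**Figure D1:**
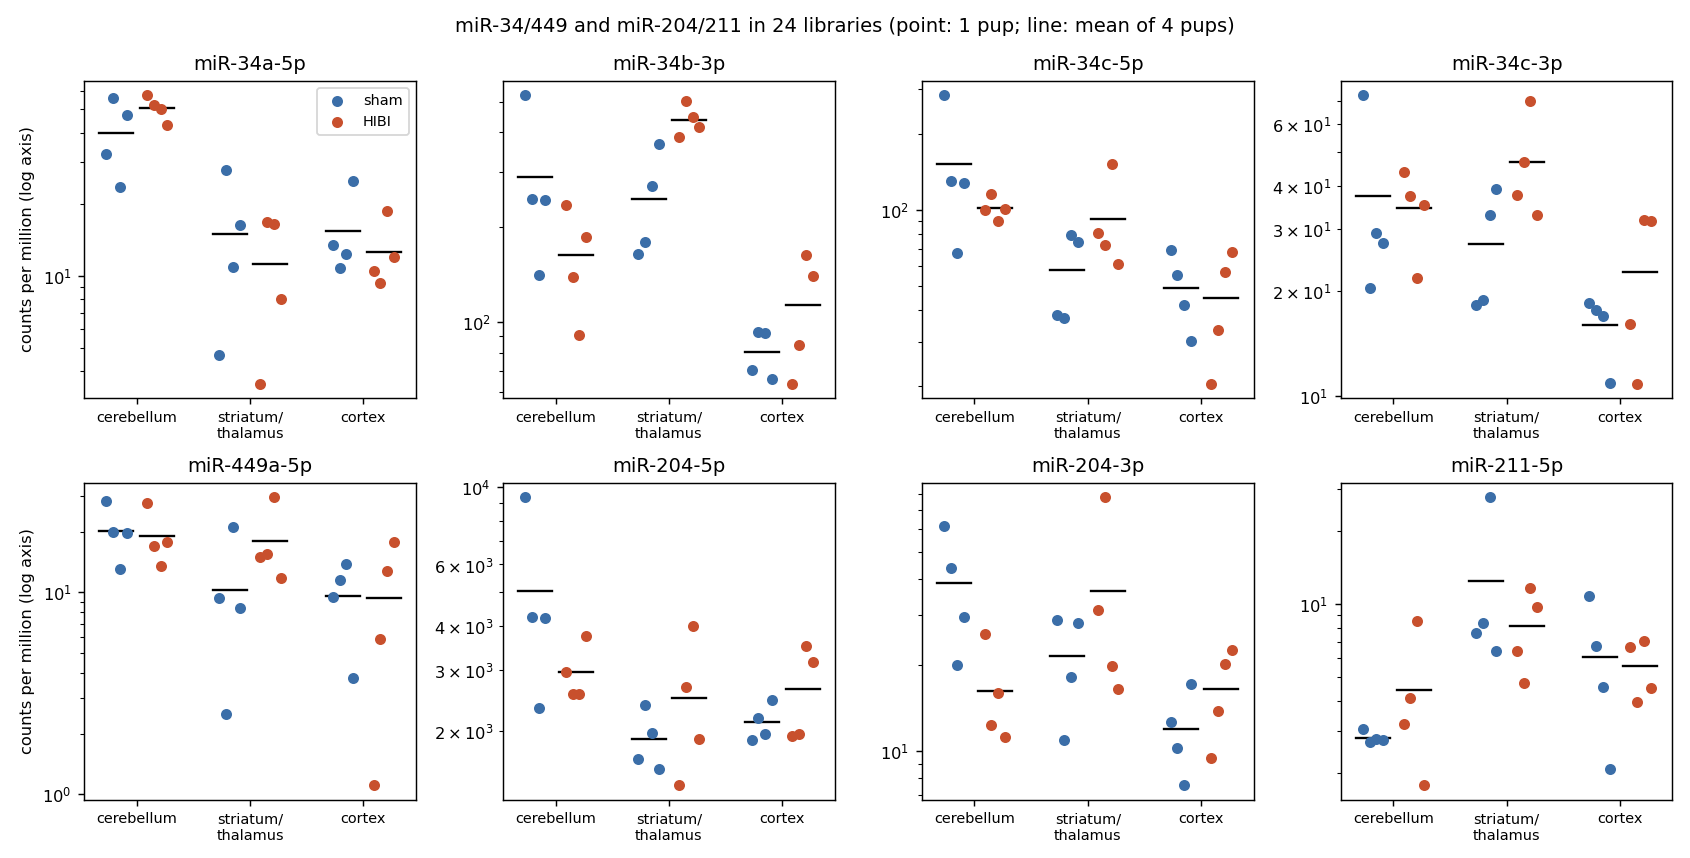
Level of 8 of the 9 miRNAs in every library, in CPM on a log axis, by region and group; each point is 1 pup and each line the mean of 4 pups. MiR-34b-3p in the striatum/thalamus is the member with no overlap between the HIBI and sham pups.

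HIBI was compared with sham within each region by the same edgeR test. Here the calls used the unadjusted p (under 0.05, with over 1.5-fold change). No adjusted p of a member was below 0.432 in any region. In these bulk tissues, fewer cells of a type and less RNA per cell cannot be told apart. In the cerebellum 1 of 7 members was called, where 7.83% of the 434 miRNAs tested were called in either direction. The count was 0 of 6 in the cortex, against 3.41% of 410, and 1 of 8 in the striatum/thalamus, against 2.75% of 436. None of the 6 had an unadjusted p under 0.05 in the cortex, and DESeq2 called none of them either. The members as a list had medians of different sign in the regions, which was not tested for the list. The median log2 fold change was -0.54 over the 7 in the cerebellum (0.11 over all miRNAs tested), 0.40 over the 6 in the cortex (-0.02 over all), and 0.61 over the 8 in the striatum/thalamus (-0.03 over all). Without sham pup 2 the cerebellum values of miR-34c-3p (0.43) and miR-449a-5p (0.11) turned positive. Those of miR-34c-5p (-0.10), miR-204-5p (-0.29), miR-34b-3p (-0.36), and miR-204-3p (-0.95) were then closer to 0 than with all pups.

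MiR-34b-3p, a product of the ciliated cell cluster, had the clearest separation of groups. Its level in the striatum/thalamus was 386, 504, 449.2, and 417 CPM in HIBI pups 1, 4, 5, and 7. In sham pups 2, 3, 6, and 8 it was 165, 179, 270, and 368 CPM. Every HIBI value was above every sham value, which was so for 1 of the 8 members tested, with 1.83% of all miRNAs tested not overlapping there. No member had separate groups in the cerebellum (0 of 7, against 3.92% of all) or cortex (0 of 6, against 3.41%). The level was 1.68-fold higher (log2 fold change 0.75, standard error 0.26, p = 0.0157, edgeR adjusted p = 0.980), with a two-sided exact permutation p = 0.0286, the smallest that 4 against 4 pups can give. The call was lost without sham pup 3, with a log2 fold change of 0.63. In the cerebellum the order was the other way, with 235, 139, 90.7, and 186 CPM in the HIBI pups and 524, 246, 141, and 244 CPM in the sham pups. The groups overlapped and the change was not called (log2 fold change -0.78, standard error 0.39, edgeR adjusted p = 0.432, two-sided exact permutation p = 0.143). Without sham pup 2 it was -0.36. In the cortex the HIBI pups had 63.7, 84.7, 164, and 140 CPM and the sham pups 70.6, 93.2, 92.5, and 65.7 CPM, with HIBI pups 5 and 7 above all sham pups and HIBI pup 1 below them.

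MiR-34c-5p, the guide arm of the neighboring hairpin, was not called in any region. In the cerebellum it was 99.6, 115, 90.3, and 101 CPM in HIBI pups 1, 4, 5, and 7 and 283, 129, 67.2, and 128 CPM in sham pups 2, 3, 6, and 8. The sham pups spread far more than the HIBI pups there, with both the highest and the lowest value among them. Striatum/thalamus values were 80.9, 72.5, 152, and 61.2 CPM in the HIBI pups and 38.1, 37.2, 79.7, and 74.7 CPM in the sham pups (log2 fold change 0.59, standard error 0.38), and without HIBI pup 5 the log2 fold change was 0.21. In the cortex it was 20.5, 33.5, 56.8, and 67.7 CPM in the HIBI pups and 69.3, 54.9, 42.0, and 30.1 CPM in the sham pups, and the groups overlapped. Its other arm, miR-34c-3p, was not called either. The fitted log2 change of this arm was -0.07 in the cerebellum, 0.50 in the cortex, and 0.69 in the striatum/thalamus. With library size alone as the scale its sign in the cerebellum turned positive, as did that of miR-449a-5p.

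MiR-449a-5p, from the second cluster of ciliated cells, ranged from 12.98 to 28.2 CPM in the cerebellum, from 1.11 to 17.7 CPM in the cortex, and from 2.51 to 29.6 CPM in the striatum/thalamus. Its log2 fold change was 0.72 in the striatum/thalamus, with a standard error of 0.58, and ran from 0.34 without HIBI pup 5 to 1.41 without sham pup 6. MiR-34a-5p, which has the same seed but a locus of its own, had the opposite signs to the miR-34b/c pair in the cerebellum and striatum/thalamus. Its fitted change was 0.36 (log2, standard error 0.32) in the cerebellum, -0.28 (0.36) in the cortex, and -0.52 (0.60) in the striatum/thalamus, the last of which was -0.011 without sham pup 3. The groups overlapped in all 3 regions.

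MiR-204-5p, the most abundant member, was also not called in any region. In the cerebellum it was 2964, 2550, 2561, and 3747 CPM in HIBI pups 1, 4, 5, and 7 and 9346, 4237, 2335, and 4228 CPM in sham pups 2, 3, 6, and 8. All sham pups but pup 6, which had the lowest value of the 8, were above all HIBI pups (log2 fold change -0.72, standard error 0.34, edgeR adjusted p = 0.432, two-sided exact permutation p = 0.2). Without sham pup 2 it was -0.29, and without sham pup 6 it was -1.01. The unadjusted p passed 0.05 with DESeq2, and so did that of miR-34b-3p. Striatum/thalamus values were 1402, 2676, 4000, and 1902 CPM in the HIBI pups and 1663, 2379, 1983, and 1561 CPM in the sham pups, and the HIBI pups held both the lowest and the highest value. In the cortex it was 1943, 1964, 3514, and 3167 CPM in the HIBI pups and 1885, 2189, 1964, and 2462 CPM in the sham pups. HIBI pups 5 and 7 were above all sham pups there, the same 2 pups as for miR-34b-3p.

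MiR-204-3p, the rare arm of the same hairpin, was the member called in the cerebellum. It was 25.7, 12.3, 15.9, and 11.2 CPM in the HIBI pups and 61.6, 44.0, 19.9, and 29.4 CPM in the sham pups. Sham pup 6 lay among the HIBI pups, and the other 3 sham pups were above them. The level was 2.33-fold lower (log2 fold change -1.22, standard error 0.42, p = 0.0128, edgeR adjusted p = 0.432), and the two-sided exact permutation test gave p = 0.0571. The call was kept in each of the 8 fits with 1 pup left out, with log2 fold changes from -1.55 to -0.95. Its counts were low, from 25 to 142 in the cerebellum. Its log2 fold change was 0.48 (standard error 0.37) in the cortex and 0.64 (0.51) in the striatum/thalamus, where HIBI pup 4 alone had 77.9 CPM against 16.5 to 31.2 CPM in the other HIBI pups. Without that pup the latter was 0.052.

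MiR-211-5p had 4 to 58 counts in a library. It was tested in the striatum/thalamus, where HIBI was 0.68 below sham on the log2 scale (standard error 0.57). Sham pup 6, with 27.7 CPM against 6.43 to 8.36 CPM in the other sham pups, decided the sign. Without that pup it was 0.15. For each 100 counts of miR-204-5p a median of 0.0867 counts of miR-211-5p were found in the cerebellum, 0.216 in the cortex, and 0.434 in the striatum/thalamus. With a minimum of 1 CPM, miR-211-5p had a log2 difference of 2.13 between the sham striatum/thalamus and the sham cerebellum (standard error 0.58, edgeR adjusted p = 0.00428), the opposite direction to miR-204-5p. MiR-34b-5p was counted in 6 libraries, with 4 counts in the striatum/thalamus of HIBI pup 5 and 1 or 2 in the others. It was not called between HIBI and sham in any region with no CPM minimum, and the two-sided exact permutation p was 0.429 in the cerebellum and 1 in the other regions, so that no difference was detectable at this depth.

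**Figure D2:**
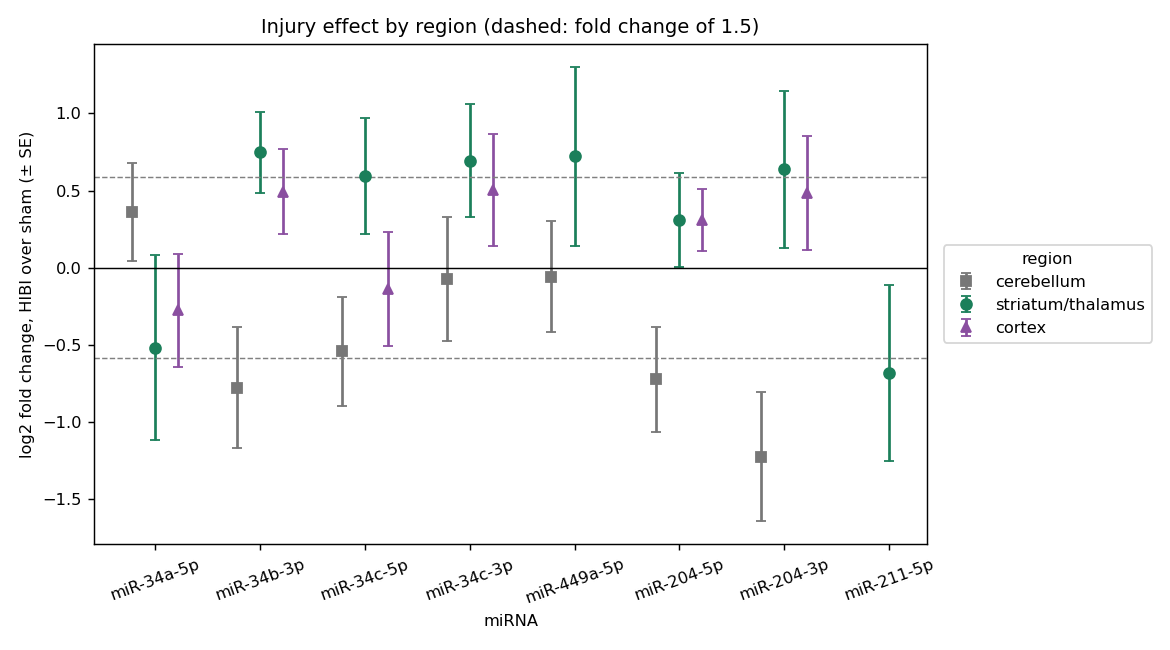
Log2 fold change of HIBI over sham for each miRNA that passed 10 CPM, by region, with bars of 1 standard error and dashed lines at a fold change of 1.5. In the cerebellum 6 of 7 values are below 0 (miR-34c-3p and miR-449a-5p turn positive with library size alone or without sham pup 2). In the striatum/thalamus 6 of 8 are above 0, with miR-34a-5p on the other side in both regions.

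The difference of the injury effect, that is the mean effect of the striatum/thalamus and cortex minus that of the cerebellum, was tested in 1 model of the 24 libraries. None of the 7 members tested had an adjusted p under 0.05, and 0% of the 435 miRNAs did. An unadjusted p under 0.05 was found for 70 miRNAs, 3 of them members, and DESeq2 called 0. The 3 were miR-204-3p (log2 difference 1.88, standard error 0.57, edgeR adjusted p = 0.151), miR-34b-3p (1.49, 0.43, 0.151), and miR-204-5p (1.13, 0.40, 0.196). The other products of the ciliated cell clusters had 0.85 for miR-34c-5p, 0.77 for miR-34c-3p, and 0.49 for miR-449a-5p, and miR-34a-5p had -0.69. Without sham pup 2 the difference was 0.94 for miR-34b-3p, 0.59 for miR-204-5p, 0.39 for miR-34c-5p, and 0.19 for miR-34c-3p, and without HIBI pup 5 it was 0.097 for miR-449a-5p. With no CPM minimum miR-34b-3p passed an adjusted p of 0.05. With the pup as a block no call changed.

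Whether the members varied together was examined over the 8 pups of each region with Pearson's r of log2(CPM + 1). Libraries of 1 region share their scaling and their dissection, and r is given beside that over all pairs of miRNAs. In the cerebellum 5 of 21 member pairs had r above 0.8, where 4.62% of 93961 pairs did. The count was 3 of 15 in the cortex, against 1.88% of 83845, and 3 of 28 in the striatum/thalamus, against 3.61% of 94830. The median r of member pairs was 0.66 in the cerebellum, 0.49 in the cortex, and 0.29 in the striatum/thalamus, and that over all pairs was 0.02, 0.01, and 0.00. No relation of a member with another miRNA had an adjusted exact permutation p under 0.05 among the 3010, 2439, and 3452 relations computed in these regions. With the 2 pups farthest from the median left out, r stayed above 0.8 in 1 of the 5 pairs in the cerebellum, 0 of the 3 in the cortex, and 1 of the 3 in the striatum/thalamus. In the pairs that dropped below 0.8 it was then 0.61 to 0.76 in the cerebellum, -0.13 to 0.54 in the cortex, and 0.55 to 0.58 in the striatum/thalamus.

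All pairs of the ciliated cell products tested had a positive r in each region, and none passed the adjusted p. Among miR-34b-3p, miR-34c-5p, miR-34c-3p, and miR-449a-5p, the 6 pairs had r from 0.63 to 0.86 in the cerebellum (median 0.70) and from 0.63 to 0.96 in the striatum/thalamus (median 0.80). The 3 pairs without miR-449a-5p had r from 0.61 to 0.83 in the cortex (median 0.66). The highest was between the arms of miR-34c in the striatum/thalamus (r = 0.96, rho = 0.76, exact permutation p = 0.00270, adjusted p = 0.366), which was 0.88 without pups 3 and 5. Other pairs differed in whether r held without the 2 farthest pups. For miR-34c-3p with miR-449a-5p it went from 0.68 to 0.72 in the cerebellum and from 0.77 to 0.79 in the striatum/thalamus. For the arms of miR-34c in the cortex it went from 0.66 to 0.74. Several pairs fell. In the cerebellum miR-34c-3p then had r = -0.30 with miR-34b-3p and -0.24 with miR-34c-5p. For miR-34b-3p r was then 0.15 with miR-34c-5p and -0.0044 with miR-449a-5p in the striatum/thalamus, and 0.20 with miR-34c-3p in the cortex. MiR-449a-5p, on another chromosome, had r = 0.86 with miR-34b-3p in the cerebellum (rho = 0.86, exact permutation p = 0.00327, adjusted p = 0.185) and 0.76 without pups 2 and 5. With these miRNAs miR-34a-5p had r from -0.29 to 0.26 in the cerebellum, 0.04 to 0.06 in the cortex, and -0.30 to 0.16 in the striatum/thalamus.

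The ciliated cell products were also set beside miR-204. In the cerebellum miR-34c-5p and miR-204-5p had r = 0.93 (rho = 0.86, exact permutation p = 0.00255, adjusted p = 0.185). Sham pup 2 was highest and sham pup 6 lowest for both, and without these 2 pups r was 0.66. MiR-34b-3p and miR-204-5p had r = 0.91 in the cerebellum (rho = 0.88, exact permutation p = 0.00275, adjusted p = 0.185) and 0.82 without pups 2 and 5. For the same 2 pairs r was 0.41 and 0.83 in the cortex and 0.46 and 0.27 in the striatum/thalamus. The value of 0.83 rested on HIBI pups 5 and 7, without which it was -0.13. Without sham pup 2, no member pair had r above 0.8 in the cerebellum. The differences of r between regions were not tested. The arms of miR-204 had r = 0.76 in the cerebellum, 0.82 in the cortex, and -0.05 in the striatum/thalamus. MiR-34a-5p and miR-204-5p had r = -0.13 in the cerebellum, 0.49 in the cortex, and 0.62 in the striatum/thalamus. The last had rho = 0.76 and an adjusted exact permutation p of 0.762. Without the 2 farthest pups r was 0.13 in the cortex and 0.32 in the striatum/thalamus. With miR-204-3p, miR-34a-5p had r = -0.11, 0.47, and -0.19 in the same order of regions.

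**Figure D3:**
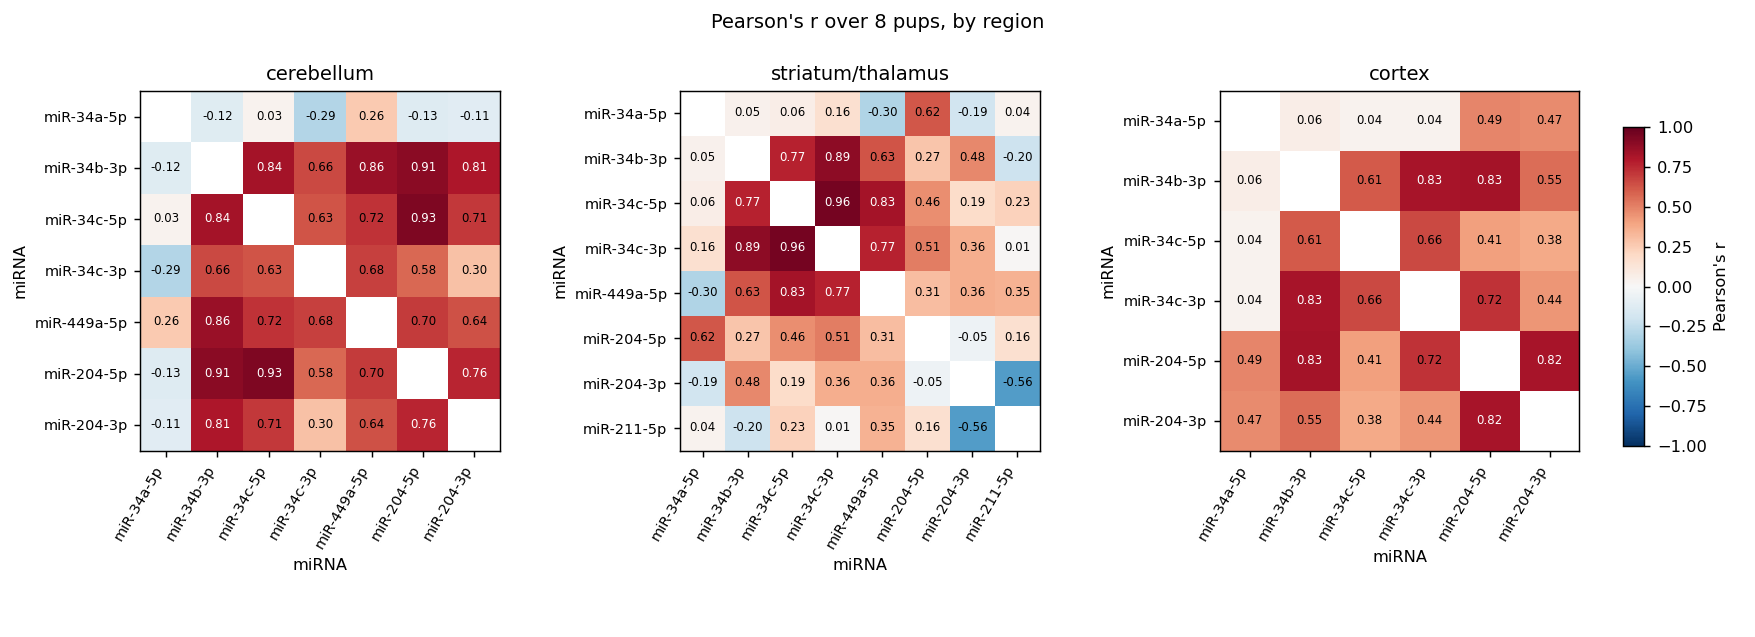
Pearson's r of log2(CPM + 1) over 8 pups for each pair of miRNAs that passed 10 CPM, by region, from -1 (blue) to 1 (red). The block of miR-34b-3p, miR-34c-5p, miR-34c-3p, and miR-449a-5p (not tested in the cortex) is positive in each region, and miR-34a-5p has r from -0.30 to 0.26 with it.

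**Figure D4:**
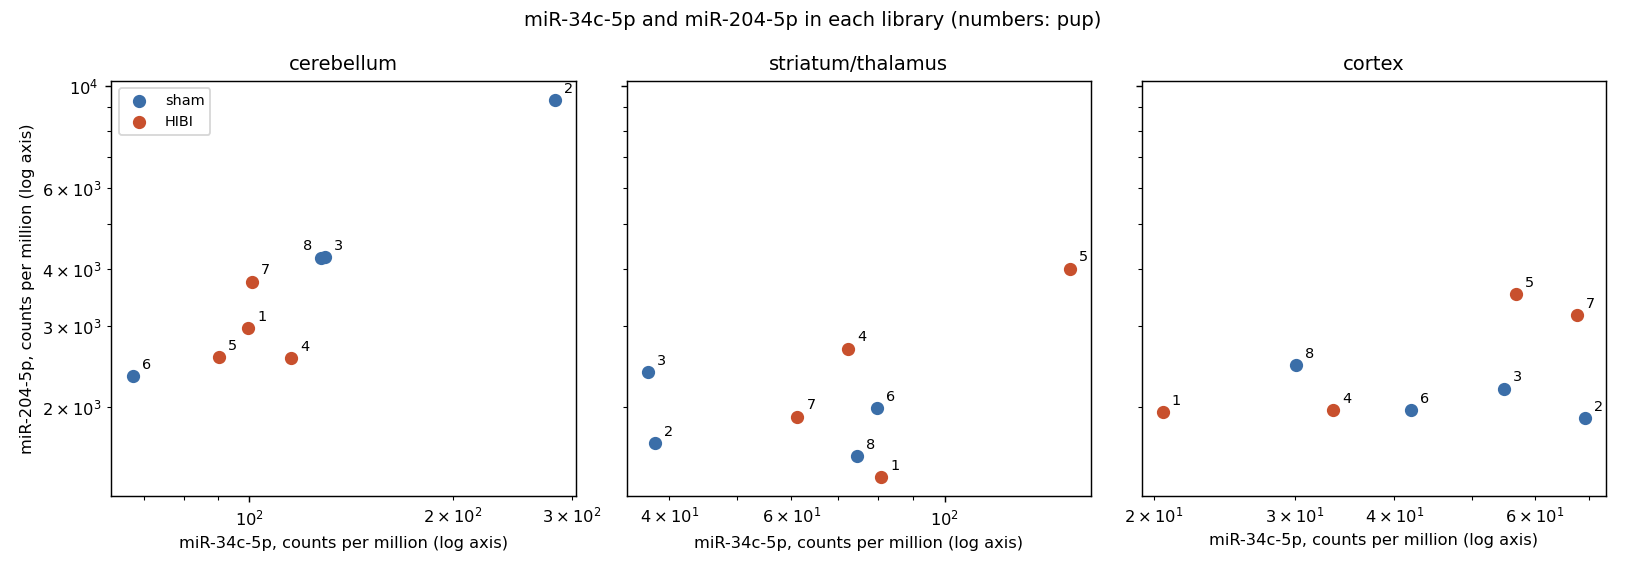
MiR-204-5p against miR-34c-5p in CPM on log axes, 1 point for each pup, numbered, in each region. In the cerebellum sham pup 2 is at the upper end and sham pup 6 at the lower end (r = 0.93), and r is 0.41 in the cortex and 0.46 in the striatum/thalamus.

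The same pup gave all 3 regions, so the level of a member could also be followed across regions. Between the cerebellum and striatum/thalamus, 6 of 7 members had a negative r over the 8 pups, with a median of -0.42, where the median over 398 miRNAs was 0.12. It was lowest for miR-34b-3p (r = -0.70, rho = -0.83, exact permutation p = 0.0499, adjusted p = 0.832) and miR-34c-5p (r = -0.66, rho = -0.81, exact permutation p = 0.0788, adjusted p = 0.832). Without the 2 farthest pups r was -0.35 for miR-34b-3p and -0.74 for miR-34c-5p. Sham pup 2, the highest of all pups for miR-34b-3p in the cerebellum, was the lowest in the striatum/thalamus. HIBI pup 5 was the lowest in the cerebellum and the second highest in the striatum/thalamus. Deviations from the injury group means, which take out the difference between HIBI and sham, had r = -0.55 for miR-34b-3p and -0.60 for miR-34c-5p. MiR-34a-5p had a positive r of 0.25. The median over members was -0.18 between the cerebellum and cortex (0.23 over 390 miRNAs) and 0.16 between the striatum/thalamus and cortex (0.22 over 393).

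**Figure D5:**
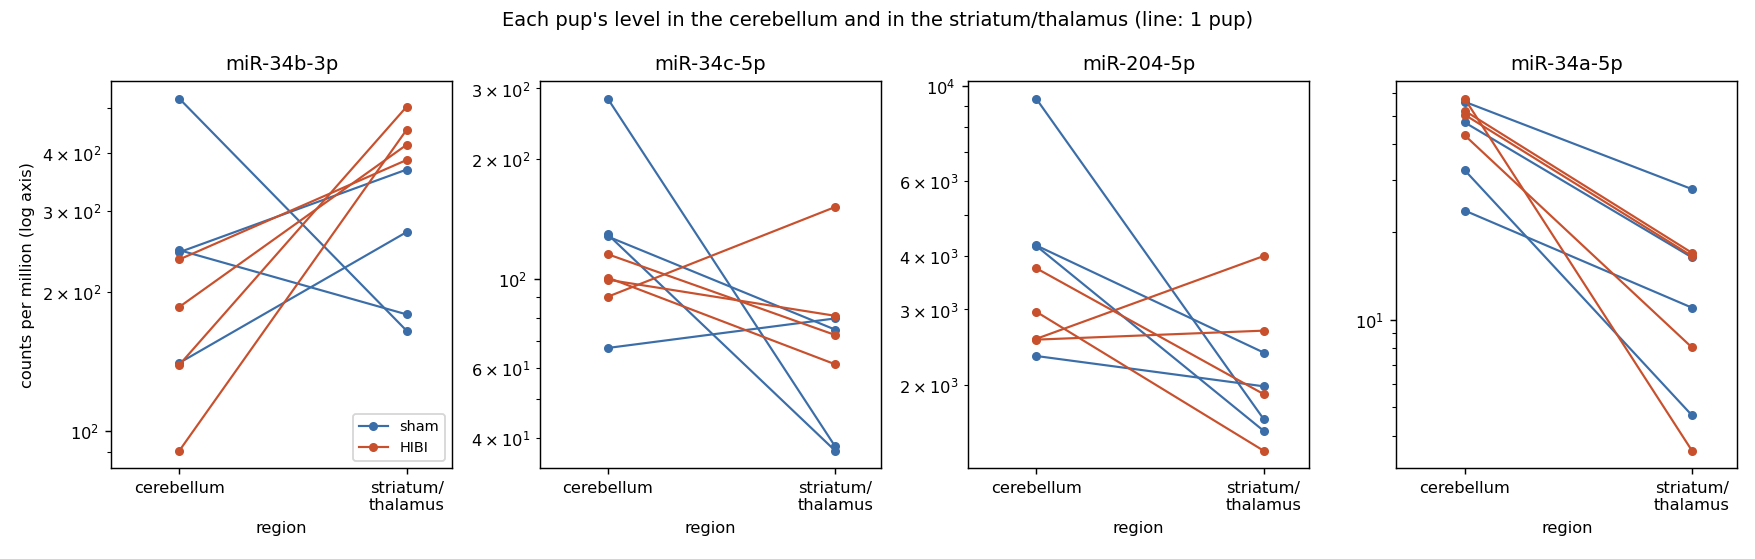
Level of 4 members in the cerebellum and striatum/thalamus of each pup, in CPM on log axes that differ between panels; each line is 1 pup. The lines of miR-34b-3p and miR-34c-5p cross (r = -0.70 and -0.66), and those of miR-34a-5p go down in all 8 pups (r = 0.25).

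The 2 neighbors miR-34b-3p and miR-34c-5p kept different proportions in the regions, a comparison chosen after the counts had been seen and given with no test. The counts of miR-34b-3p for each count of miR-34c-5p ran from 1.00 to 2.36 in the cerebellum (median 1.88), from 1.02 to 3.11 in the cortex (median 2.19), and from 2.96 to 6.95 in the striatum/thalamus (median 4.79). All 8 striatum/thalamus libraries were above all 8 cerebellum libraries. How often other pairs of miRNAs separate these regions was not computed, and 60.7% of all miRNAs tested were called between them in the sham pups. Against the other arm, miR-34c-3p, the regions overlapped. That ratio ran from 3.72 to 12.1 in the cerebellum (median 5.32) and from 6.42 to 12.7 in the striatum/thalamus (median 9.46). The ratio of the miR-204 arms also varied widely, from 34.4 to 219 counts of the 5p arm for each count of the 3p arm in the striatum/thalamus and from 96.3 to 336 in the cerebellum. In the cerebellum 5 of the 7 members spread more between pups of a group than the median miRNA. There miR-34b-3p had a within-group SD of 0.69 on the log2 scale and miR-204-5p of 0.61, where the median of the 434 miRNAs was 0.42. A wide spread was not particular to the cerebellum. In the cortex all members tested were above the median SD of 0.31, with 0.34 to 0.64. In the striatum/thalamus all but miR-34b-3p (0.40) were above the median of 0.44, up to 0.96 for miR-34a-5p.

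As other miRNAs known from the choroid plexus, the products of the miRNA cluster in the introns of Htr2c, a serotonin receptor gene of that epithelium, were set beside miR-204. Of the 12 on the list, 9 were in the tables and 6 passed 10 CPM in each region. Their summed level was 324 to 2599 CPM in the sham cerebellum and 660 to 1252 CPM in the HIBI cerebellum. It was 363 to 568 and 319 to 1301 CPM in the sham and HIBI striatum/thalamus, and 212 to 428 and 192 to 692 CPM in the sham and HIBI cortex. Sham pup 2 had the highest sum and sham pup 6 the lowest in the cerebellum, as for miR-204-5p. MiR-764-5p and miR-1912-5p had no count in the striatum/thalamus or cortex. Of the 6 tested, 0 were called between HIBI and sham in the cerebellum, 1 higher in the cortex (miR-1298-5p), and 2 higher in the striatum/thalamus (miR-1298-5p and miR-1264-3p), where 7.83%, 3.41%, and 2.75% of all miRNAs tested were called. These calls rest on unadjusted p-values, and the edgeR adjusted p was 0.818 in the cortex and 0.980 for both in the striatum/thalamus. In the striatum/thalamus miR-1298-5p was 102, 777, 803, and 154 CPM in HIBI pups 1, 4, 5, and 7 and 132 to 224 CPM in the sham pups. The log2 fold changes there were -0.28 for miR-448-5p, -0.16 for miR-1298-3p, 0.46 for miR-1264-5p, and 0.47 for miR-448-3p. The difference of the injury effect had no adjusted p under 0.05 among the 6 tested. It was largest for miR-1298-5p (log2 difference 1.96, edgeR adjusted p = 0.226).

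The non-members most like miR-204-5p over the 8 pups were miR-1298-5p (mean of the 3 regional r 0.83), miR-448-3p (0.75), and let-7c-5p (0.75). The first 2 are products of the Htr2c introns, but other products of that list were less like miR-204-5p. In the cerebellum, cortex, and striatum/thalamus, r with miR-204-5p was 0.35, -0.40, and 0.10 for miR-448-5p. It was 0.22, -0.08, and 0.65 for miR-1298-3p, 0.89, 0.13, and 0.69 for miR-1264-5p, and 0.61, 0.03, and 0.84 for miR-1264-3p. MiR-1298-5p had r = 0.88 in the cerebellum, 0.72 in the cortex, and 0.90 in the striatum/thalamus, and the lowest of its adjusted exact permutation p-values was 0.185. For miR-34c-5p they were miR-375-3p (0.67), miR-25-3p (0.57), and let-7d-5p (0.55), with 373 non-members ranked for each. Members reached 0.75 (miR-34c-3p), 0.74 (miR-34b-3p), and 0.60 (miR-204-5p) with miR-34c-5p. The median over the non-members was 0.03 for miR-204-5p and 0.00 for miR-34c-5p.

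Markers of other tissue that a dissection could hold were summed in the same way, and their part in the members' differences was not tested. The 5 erythrocyte miRNAs had 1233 to 2364 CPM in the sham cerebellum and 930 to 1353 in the HIBI cerebellum, 734 to 1100 and 798 to 1113 in the cortex, and 1264 to 1673 and 945 to 2656 in the striatum/thalamus. The 4 skeletal muscle miRNAs had 449.3 to 605 and 350 to 653 CPM in the cerebellum, 28.4 to 63.6 and 30.0 to 64.4 in the cortex, and 52.8 to 141 and 39.3 to 85.5 in the striatum/thalamus. The 5 miR-200 family members of epithelium had 35.2 to 50.5 and 21.9 to 45.4 CPM in the cerebellum, 62.8 to 185 and 59.3 to 82.2 in the cortex, and 81.7 to 183 and 71.1 to 185 in the striatum/thalamus. Their sums were lowest in the cerebellum. The 6 miRNAs of meninges and vessels had 2808 to 4283 and 3226 to 6258 CPM in the cerebellum, 2311 to 3544 and 2186 to 3812 in the cortex, and 1867 to 2582 and 1884 to 4079 in the striatum/thalamus. The sham and HIBI ranges of each of these lists overlapped in each region. For the erythrocyte miRNAs of the cerebellum the overlap came from sham pup 6 alone (1233 CPM). Sham pups 2, 3, and 8 had 2364, 2163, and 2183 CPM, above all HIBI pups. MiR-141-3p had no count in most groups, miR-144-3p none in the HIBI striatum/thalamus, and miR-133b-3p none in the cortex.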

How the data were processed

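MiRNA-Seq was analysed in 3 regions of 8 pups. With bowtie2, the authors mapped the reads on the mature mouse sequences of miRBase, and they deposited raw counts for each region. The same tables hold the log2 fold changes, log2 CPM, p-values, and false discovery rates of the authors' own deposited comparison, which were not used. Versions, miRBase release, and the rule for reads matching several miRNAs are not given in the sources used here. The 20 castor bean entries were left out.

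Counts were tested with edgeR 4.0.16 in R 4.3.3 (TMM, quasi-likelihood test) over miRNAs with an average above 10 CPM. HIBI and sham were compared within each region. Regions and the difference of injury effects were tested in 1 model of 24 libraries. P-values were adjusted by Benjamini-Hochberg over all miRNAs tested. The libraries are paired because 1 pup gave all 3 regions. Over all miRNAs the median r between regions, after removal of group means, was 0.19 to 0.30. Correlations used exact permutation over 40320 orders of pups. DESeq2 1.42.0, other scales, minimums, and pups left out were alternatives. The code was tested on simulated data. The members and lists were chosen with earlier results of these data known. All 9 members were named, with the other arms, the Htr2c list, and the 3 miRNAs most like miR-34c-5p and miR-204-5p.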

Additional observations from a re-analysis of the deposited data

Results flagged for a closer look

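Among 52 groups of 4 pups examined, 1 pup stood apart from the other 3 in 4, and chance alone sets a pup apart in about 1 of 20 groups. For miR-211-5p in the sham striatum/thalamus, pup 6 had 27.7 CPM (58 counts) against 6.43 to 8.36 CPM in the others, with a gap of 0.8294 of the range on the log2 scale. For miR-34c-3p in the sham cortex, pup 8 had 10.9 CPM (26 counts) against 16.9 to 18.4 CPM, with a gap of 0.835 of the range. For miR-34b-5p the gap was 1 in both cases, with 4 counts in the striatum/thalamus of HIBI pup 5 and 2 counts in the cortex of sham pup 3, and 0 in the other pups of those groups. With 0 in all other pups any count gives a gap of 1. The rate of about 1 in 20 therefore does not apply to these cases.

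MiR-211-3p, the other arm of miR-211 and no member of the list compared above, had 11 counts in the 4 HIBI libraries of the cortex (4, 1, 2, and 4 in pups 1, 4, 5, and 7) and 0 in the 4 sham libraries of the cortex and in all libraries of the other regions. A count of 0 allows up to 3 counts in a library, so that the values lie near that limit. An arm was flagged here only if its HIBI counts were all above its sham counts, so the separation is how it was picked. Of all miRNAs tested in the cortex, 3.41% did not overlap. The 5p arm had 53 counts in the HIBI and 65 in the sham libraries of the cortex.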

How the results depend on the processing

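With other tools, scales, or CPM minimums, the members called between HIBI and sham stayed at 0 in the cortex and 1 in the striatum/thalamus. The 1 of the cerebellum became 3 with DESeq2, with upper quartile scaling, and with no CPM minimum, and 2 with the likelihood ratio test or a 1 CPM minimum. With 1 pup left out the counts ran from 1 to 4, 0 to 2, and 0 to 1 in the cerebellum, striatum/thalamus, and cortex. The HIBI pups gave 2 calls in place of 6 for cortex against cerebellum and 3 in place of 1 for striatum/thalamus against cortex, and no CPM minimum gave 1 in place of 0 for the difference of injury effects. The pup as a replicate block, paired by animal, left 3, 6, 1, and 0 calls (regions, then the difference), as without it. Over all miRNAs the calls between HIBI and sham were 34 in the cerebellum (36 to 106 under the other settings), 14 in the cortex (13 to 86), and 12 in the striatum/thalamus (12 to 54). They ran from 18 to 82, 10 to 17, and 5 to 38 with 1 pup left out. Those of the difference were 0 (0 to 10), and those of cortex below or above cerebellum 239 (148 in the HIBI pups).

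Signs turned for miR-34c-3p (0.13) and miR-449a-5p (0.13) in the cerebellum and miR-34a-5p (0.038, sham striatum/thalamus against cortex) with library size alone, and for miR-449a-5p (-0.072, the same comparison) with no minimum. In the HIBI pups they turned for miR-34b-3p (1.43), miR-204-3p (1.16), and miR-34c-3p (0.44) between striatum/thalamus and cerebellum and for miR-204-3p (0.042) between cortex and cerebellum. With 1 pup left out, injury effects that turned ran from -0.31 to 0.43 (miR-34c-3p) and -0.32 to 0.11 (miR-449a-5p) in the cerebellum, -0.042 to 0.58 (miR-204-5p) and -0.91 to 0.15 (miR-211-5p) in the striatum/thalamus, and -0.53 to 0.072 (miR-34a-5p) and -0.39 to 0.11 (miR-34c-5p) in the cortex. Sham striatum/thalamus against cerebellum ran from -0.54 to 0.37 (miR-34b-3p) and -0.78 to 0.23 (miR-34c-3p). Against cortex it ran from -0.25 to 0.070 (miR-204-5p), -0.63 to 0.32 (miR-34a-5p), -0.035 to 0.59 (miR-34c-5p), and -0.31 to 0.54 (miR-449a-5p). The cause was not tested.

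Member pairs with r above 0.8 fell from 5 to 3 in the cerebellum with library size alone and from 3 to 0 in the cortex with deviations from group means. The 3 cortex pairs then lay just under the threshold, with r from 0.78 to 0.80. The median r over the member pairs of the cortex was 0.68 with deviations and 0.49 without. With 1 pup left out they ran from 0 (sham pup 2) to 7 in the cerebellum, 2 to 5 in the striatum/thalamus, and 0 (HIBI pup 5 or 7) to 4 in the cortex. The median r between cerebellum and striatum/thalamus was -0.30 with library size alone and -0.68 to -0.30 with 1 pup left out. That between cerebellum and cortex was -0.082 with deviations and -0.28 to -0.068 with 1 pup left out, and that between striatum/thalamus and cortex was -0.11 with deviations and 0.041 to 0.34.

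Members under about 20 CPM rest on few counts, and with 4 pups a group the absence of a call does not show that groups did not differ.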
